A study of Mus musculus with 6 samples.

Results

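The 9 imprinted growth-control genes H19, Dlk1, Meg3, Cdkn1c, Peg3, Plagl1, Mest, Grb10 and Ndn were followed in limb bone perichondrium, the connective tissue sheath of cartilage. They were found by symbol in the mouse GENCODE M21 annotation among the 55536 genes of the deposited count matrix, and all 9 were among the 15712 genes tested. The tissue came from mice at postnatal day 4, and each of the 6 libraries is a bulk RNA sequencing library. In 3 libraries the mice carried the Fbn1Scx-/- genotype, a loss of Fbn1 in cells with Cre under the control of scleraxis, a tendon and ligament gene (KO-596, KO-597 and KO-795). The other 3 came from wild-type mice (WT-596, WT-597, WT-795). Wherever 3 values are given for the libraries of a group, they stand in this order. Fbn1 encodes fibrillin-1, the microfibril protein whose gene is mutated in Marfan syndrome, and cells in the sample that never expressed scleraxis keep the gene. Whether the libraries of a group are separate animals is not stated in the labels, so p-values measure the spread between libraries, part of which may be technical.

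Imprinted genes are expressed mainly from the copy inherited from 1 parent, and many of them set how long fetal and early postnatal tissues keep growing. H19, Meg3 and Cdkn1c are expressed from the maternal copy, as is Grb10 in most tissues outside the brain, while Dlk1, Peg3, Plagl1, Mest and Ndn are expressed from the paternal copy. Several of them are high before birth and shut down together as body growth slows, and Plagl1 encodes a transcription factor known to regulate other imprinted genes. Counts per gene do not separate the parental copies, so the values below are totals of both.

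Total counts lay between 7209217 and 9720268 in KO libraries and between 8019248 and 10316017 in WT libraries. Fbn1 was at 6.75 to 10.04 CPM (counts scaled to a common library size by TMM) in KO and at 63.5 to 119 CPM in WT, and it was the only gene called over all 15712 by edgeR (adjusted p = 1.03e-04). Markers of perichondrium and fibroblasts, with all 12 detected, summed to 37278 to 39102 CPM in KO and 38421 to 39695 CPM in WT. Skeletal muscle markers, with all 18 detected, summed to 3351 to 6623 CPM in KO and 4337 to 13486 CPM in WT, with the highest value in WT-597. In chondrocyte markers, with all 12 detected, the sums were 346 to 423 CPM in KO and 379 to 554 CPM in WT. Xist RNA, which females make from their inactive X chromosome, had 6221 and 4024 counts in KO-596 and KO-597 and at most 4 in the others, so sex was not balanced between the groups. Ddx3y, a Y chromosome gene, had 0 counts in KO-596 and KO-597 and 1641 in KO-795. The KO libraries therefore did not all come from 1 animal, while for the WT libraries these counts do not tell. Schwann cell markers, with all 6 detected, summed to 22.8 to 68.0 CPM in KO and 9.01 to 25.8 CPM in WT. Osteoblast markers were below 0 in KO over WT for 8 of 9, tendon markers for 5 of 6 and macrophage markers for 4 of 6, with median log2 fold changes of -0.42, -0.29 and -0.54, and none was called. Schwann cell markers had 5 tested, with 4 above 0 and a median log2 fold change of 1.63. At an unadjusted edgeR p under 0.05 were 1 osteoblast, 3 tendon, 3 macrophage, 4 Schwann cell and 4 muscle markers. So were 1 of 12 perichondrium and fibroblast, 1 of 12 chondrocyte and 0 of 6 erythroid markers, beside 10.5% of all genes tested. Erythroid markers summed to 4634 to 34965 CPM in KO and 10360 to 34058 CPM in WT. The part of these cells in the results below was not tested. WT-795 stood apart from the other WT libraries: without it edgeR called 1512 genes, 9.62% of those tested (3.50% as higher and 6.12% as lower in KO).

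Together the 9 genes took 0.500% to 0.575% of all counts in KO libraries and 0.503% to 0.557% in WT libraries. Levels were compared between genes per kilobase of annotated exons. H19 was the most abundant, at 615 ± 57.1 CPM per kb in KO and 722 ± 203 CPM per kb in WT (SD, n = 3 each). Mest followed at 299 ± 60.4 CPM per kb in KO and 306 ± 31.9 CPM per kb in WT (SD, n = 3 each). Cdkn1c was at 281 ± 40.4 CPM per kb in KO and 283 ± 40.1 CPM per kb in WT (SD, n = 3 each). Mest and Cdkn1c overlapped in their ranges over the 6 libraries, while both stayed below H19 and above all other members. The next group ran from Plagl1, at 82.0 ± 25.9 CPM per kb in KO and 55.0 ± 25.1 CPM per kb in WT (SD, n = 3 each), through Peg3, Dlk1 and Ndn to Grb10, at 27.03 ± 0.323 CPM per kb in KO and 23.9 ± 4.58 CPM per kb in WT (SD, n = 3 each), and each neighbour in that order overlapped the next. Meg3 was lowest, with single libraries between 3.13 and 7.46 CPM per kb, below every value of the other members. For every member the exon length joins all annotated isoforms, which lowers a level per kb where few of them are used. The lengths ran from 2039 bases for Cdkn1c to 18089 bases for Meg3, so the order of the levels depends on them.

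None of the 9 genes changed by the test. By edgeR's quasi-likelihood test 0 of 9 passed an adjusted p of 0.05 over all genes, against a background of 0.00636% of genes called, and 0 of 9 had an unadjusted p under 0.05, against 10.5% of all genes. DESeq2 and limma-voom also called 0 of 9, with 0 and 1 at an unadjusted p under 0.05. In 0 of 9 genes did the KO and WT libraries separate without overlap, against 11.9% of all genes tested, and against 6.22% of the 1189 genes at least as abundant as the lowest member. The log2 fold changes of KO over WT lay between -0.46 and 0.58, with 5 above 0 and 4 below and a median of 0.06, beside a median of 0.01 over all genes tested. The median size of the change without its sign was 0.23 for the 9 genes and 0.30 for all genes tested. With 3 libraries against 3, an exact two-sided permutation test cannot go below p = 0.1.

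**Figure D1:**
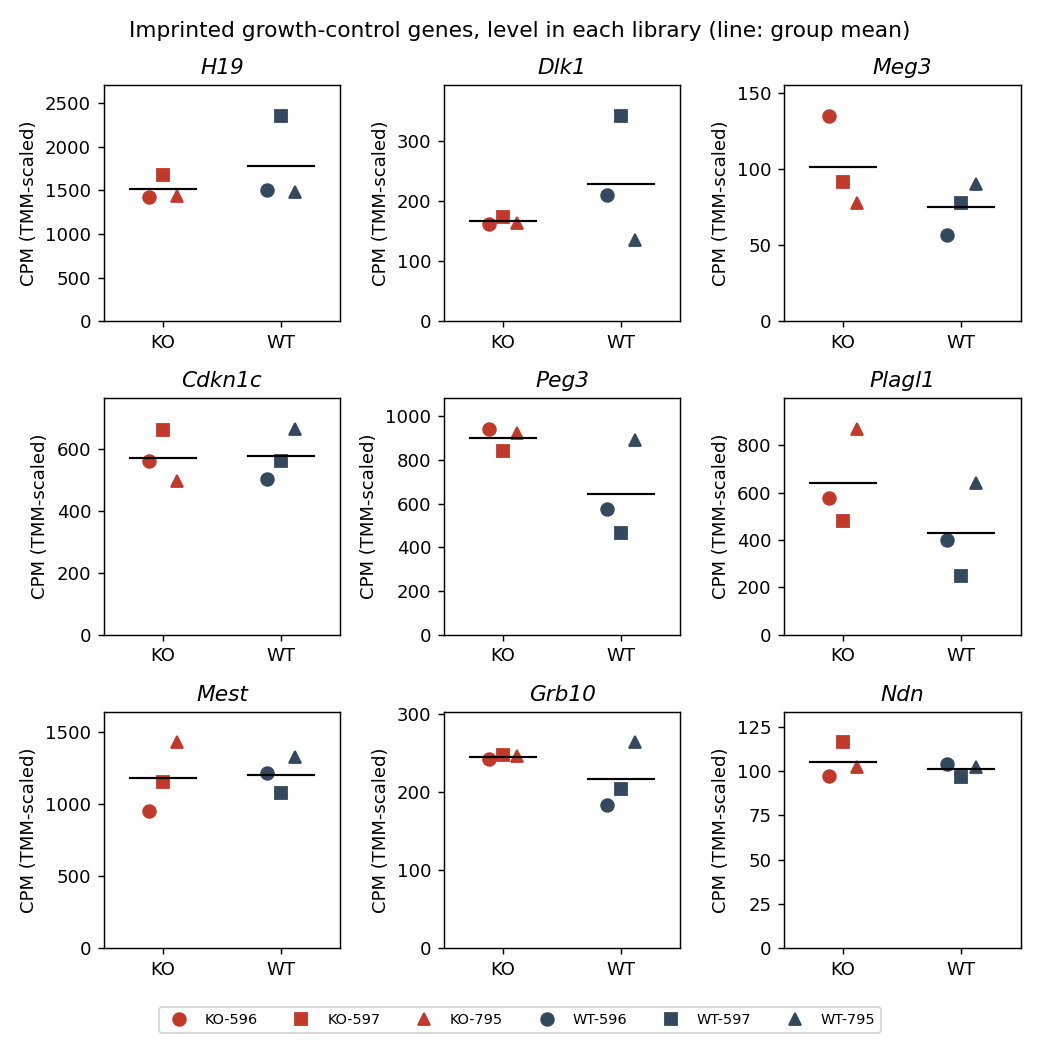
Level of each of the 9 genes in CPM (TMM-scaled, linear axis from 0) in the KO and WT libraries; each symbol is a library and the line is the group mean. In every panel the groups overlap, and in the panels of Peg3 and Plagl1 WT-795 lies inside the KO range while WT-596 and WT-597 lie below it.

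H19 is a maternally expressed long non-coding RNA that restrains growth and carries the microRNA miR-675 in its first exon. It lies on the minus strand at chr7:142575529-142578143 (GRCm38). H19 had 1428, 1676 and 1437 CPM in KO libraries, and 1499, 2353 and 1475 CPM in WT libraries. A single library, WT-597, stood above the other 5, which lay close together in both groups. The log2 fold change was -0.23 (SE 0.27, 95% interval -0.80 to 0.34), with an edgeR adjusted p of 0.703 and an exact permutation p of 0.5. It was 0.01 without WT-597, -0.02 with the muscle markers as a covariate and 0.09 after a correction for transcript GC content, so its sign was not kept. WT-597 was also the library with the most skeletal muscle marker RNA.

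The mature forms of miR-675, and of miR-335 from an intron of Mest, are shown from RefSeq (GRCm38.p6) because they are the known small RNA products of 2 of the most abundant members, with the seed (bases 2 to 8) in capitals.
mmu-miR-675-5p: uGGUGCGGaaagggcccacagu
mmu-miR-675-3p: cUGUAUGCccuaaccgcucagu
mmu-miR-335-5p: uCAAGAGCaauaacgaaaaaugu
mmu-miR-335-3p: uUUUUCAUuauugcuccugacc
The 4 seeds differ from each other. The annotated Mir675 gene had 0 counts in all 6 libraries while its host H19 had 87322 counts in total, and Mir335 had 5 counts beside 62610 for Mest. These libraries were made from full-length cDNA, so the rows say nothing of the mature microRNAs.

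Igf2, the paternally expressed growth factor gene that neighbours H19 and shares its enhancers, was lower in KO on average without passing the test. It had 26.0, 57.9 and 41.7 CPM in KO libraries, and 84.9, 171 and 41.6 CPM in WT libraries. WT-795 lay inside the KO range and the other WT libraries lay above it. The log2 fold change was -1.25 (SE 0.41, edgeR adjusted p = 0.459), -0.55 with the muscle covariate and -0.89 after the GC correction. Without WT-795 it was -1.63 with an edgeR adjusted p of 0.0111, and with the GC correction as well -1.18 with an adjusted p of 0.0698. The antisense transcript Igf2os was at -0.999 (SE 0.39), and without WT-795 it fell by 1.32 (edgeR adjusted p = 0.0286, and 0.213 with the GC correction as well). With no filter on low counts, where 31958 genes were tested, edgeR called Igf2 with all 6 libraries (-1.26, adjusted p = 3.64e-04). That fit called 270 genes in all, against 1 in the fit reported. In it the SE was 0.25 for both Igf2 and Ndn, beside 0.41 and 0.20 in the fit reported. The p without a filter therefore reflects less of the spread of Igf2 itself between libraries. Of the annotated exon bases of Igf2, 62.8% are shared on the same strand with the read-through gene Gm49394, so its level is uncertain.

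Dlk1 and Meg3 belong to another imprinted cluster, on chromosome 12. Dlk1 encodes a membrane protein with EGF-like repeats that holds back the differentiation of fat precursors and other mesenchymal cells, and it lies on the plus strand at chr12:109452823-109463336. Dlk1 had 162, 174 and 163 CPM in KO libraries, and 210, 342 and 135 CPM in WT libraries. The KO libraries lay within a narrow range, with WT-795 below it and the other WT libraries above it. KO over WT, Dlk1 was at a log2 fold change of -0.46 (SE 0.29, 95% interval -1.08 to 0.15), the lowest of the 9 genes, with an edgeR adjusted p of 0.509 and an exact permutation p of 0.4. It was -0.08 with the muscle covariate and -0.20 after the GC correction.

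Meg3, a maternally expressed long non-coding RNA, lies downstream of Dlk1 at chr12:109541001-109571726 on the plus strand. It had 135, 91.5 and 77.8 CPM in KO libraries, and 56.6, 77.6 and 90.5 CPM in WT libraries. KO-596 was highest and WT-596 lowest, and the other 4 libraries were close together. This gave a log2 fold change of 0.44 (SE 0.26, 95% interval -0.11 to 0.99, edgeR adjusted p = 0.496, exact permutation p = 0.2). It was 0.18 without KO-596, 0.44 after the GC correction, 0.31 with the muscle covariate and 0.06 with a covariate for the Xist libraries, which leaves KO-795 alone against WT. The log2 ratio of Dlk1 to Meg3 was 0.26, 0.92 and 1.07 in KO libraries, and 1.89, 2.14 and 0.57 in WT libraries. WT-795 lay inside the KO range of this ratio as well. Rian and Mirg, maternally expressed non-coding genes further along the same cluster that host snoRNAs and microRNAs, were at log2 fold changes of 0.35 (SE 0.29) and 0.37 (SE 0.34), and Rtl1, a paternally expressed retrotransposon-derived gene, at 0.58 (SE 0.44). Rtl1 had only 13 to 34 counts per library. Without KO-596 Mirg was at 0.042. Rian was at -0.11 after the GC correction, and without WT-795 it rose by 0.77 (edgeR adjusted p = 0.0385), but was at 0.011 with the GC correction as well (adjusted p = 0.985).

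Cdkn1c encodes p57KIP2, the cyclin-dependent kinase inhibitor with which growth plate chondrocytes leave the cell cycle, and lies on the minus strand at chr7:143458339-143461050. It had 562, 661 and 497 CPM in KO libraries, and 503, 563 and 665 CPM in WT libraries. The groups covered almost the same range. This gave a log2 fold change of -0.01 (SE 0.23, 95% interval -0.50 to 0.48, edgeR adjusted p = 0.987, exact permutation p = 0.7), and 0.34 after the GC correction. Its transcript GC content of 59.4% is the highest of the 9 genes, in the range where most genes lay below 0. The antisense gene Gm44732, with 98.4% of its exon bases inside those of Cdkn1c, had 4229 counts beside 29565 for Cdkn1c, and without strand in the library kit the reads of the pair cannot be told apart. Kcnq1ot1, the paternally expressed antisense RNA that silences Cdkn1c on its own chromosome, had 361, 278 and 251 CPM in KO libraries, and 125, 125 and 278 CPM in WT libraries. WT-795 lay inside the KO range and the other WT libraries well below it. Its log2 fold change was 0.76 (SE 0.30, edgeR adjusted p = 0.459), 0.45 after the GC correction, and 1.23 without WT-795 (edgeR adjusted p = 0.0106, and 0.114 with the GC correction as well).

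Peg3 and Plagl1 encode zinc finger proteins, both from the paternal copy. Peg3 lies on the minus strand at chr7:6703892-6730431 and acts as a repressor of transcription that affects growth and maternal behaviour. It had 942, 841 and 925 CPM in KO libraries, and 574, 466 and 891 CPM in WT libraries. The KO libraries were close together, WT-795 lay among them, and the other WT libraries lay far below. The log2 fold change was 0.49 (SE 0.27, 95% interval -0.08 to 1.06, edgeR adjusted p = 0.484, exact permutation p = 0.2), 0.40 after the GC correction and 0.33 with the muscle covariate.

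Plagl1, which encodes the cell cycle inhibitor ZAC1, lies on the plus strand at chr10:13060504-13131694. It had 576, 478 and 868 CPM in KO libraries, and 400, 250 and 640 CPM in WT libraries. KO-795 and WT-795 were the highest of their groups and KO-597 and WT-597 the lowest, and the groups overlapped through WT-795. KO over WT, Plagl1 was at a log2 fold change of 0.58 (SE 0.32, 95% interval -0.12 to 1.27), the highest of the 9 genes, with an edgeR adjusted p of 0.488 and an exact permutation p of 0.3. It was 0.48 after the GC correction, 0.41 with the muscle covariate, and 1.01 with the Xist covariate (edgeR adjusted p = 0.930). Zim1, a maternally expressed zinc finger gene beside Peg3, had 87.4, 64.2 and 67.7 CPM in KO libraries, and 43.3, 45.8 and 56.1 CPM in WT libraries, without overlap of the groups. Its log2 fold change was 0.60 (SE 0.22, edgeR adjusted p = 0.459), and 0.31 after the GC correction.

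Without WT-795, 3 of the 9 genes passed the test. Dlk1 fell by 0.75 on the log2 scale (SE 0.22, edgeR adjusted p = 0.0431), Peg3 rose by 0.77 (SE 0.22, adjusted p = 0.0417) and Plagl1 rose by 0.95 (SE 0.28, adjusted p = 0.0471). The same fit called 3.50% of all genes as higher and 6.12% as lower, 9.62% in all. With the GC correction as well, the 3 genes were at -0.41, 0.66 and 0.81 with edgeR adjusted p of 0.336, 0.133 and 0.158. Leaving out any other library called 0 of 9. Mitochondrial genes, ribosomal RNA and ribosomal protein genes and Lars2 together took 36.2%, 34.8% and 32.1% of the counts in KO libraries, and 27.9%, 28.8% and 36.0% in WT libraries. By this share WT-795 lay inside the KO range and the other WT libraries below it, so without WT-795 the groups also separate by it, and its part in these 3 calls was not tested.

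**Figure D2:**
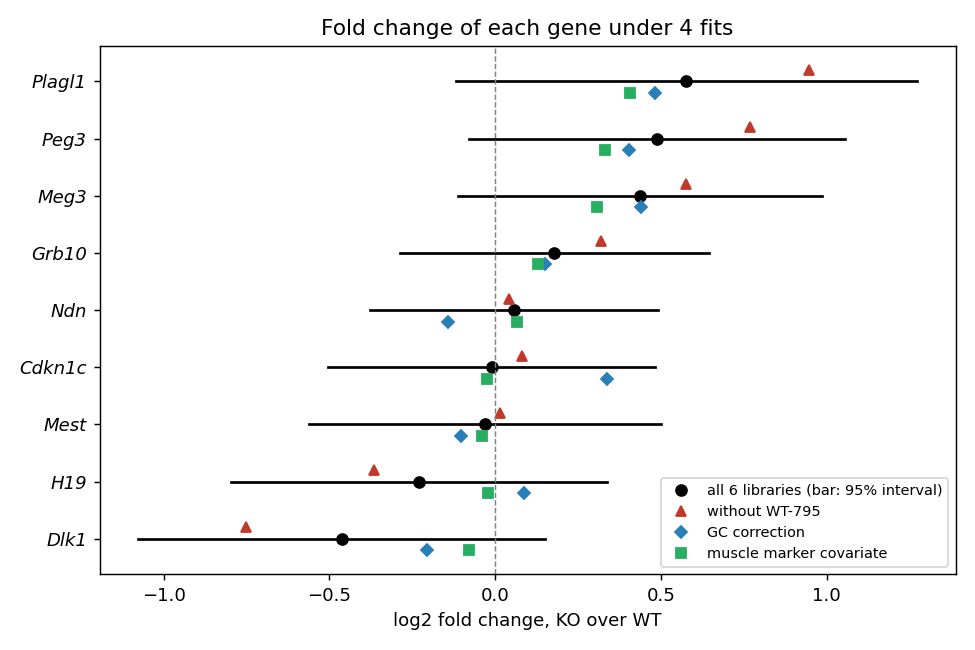
Log2 fold change of KO over WT for each gene, with all 6 libraries (point, bar for the 95% interval), without WT-795, after the GC correction and with the muscle marker covariate. Every 95% interval includes 0, and the values without WT-795 lie furthest from 0 for Dlk1, Peg3 and Plagl1.

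The promoter of Peg3 (RefSeq, GRCm38.p6, chr7:6730370-6730669, minus strand, 250 bases before to 50 after the start) is shown because Plagl1 and Peg3 were the members with the highest fold changes and because it was the only promoter among those of the 7 members matched in the table that held GGGGCCCC, the core of the known ZAC1 site, which reads the same on both strands. The core, in capitals, begins 201 bases before the start. No promoter was matched for H19 or Cdkn1c, so none of theirs was searched.
Peg3: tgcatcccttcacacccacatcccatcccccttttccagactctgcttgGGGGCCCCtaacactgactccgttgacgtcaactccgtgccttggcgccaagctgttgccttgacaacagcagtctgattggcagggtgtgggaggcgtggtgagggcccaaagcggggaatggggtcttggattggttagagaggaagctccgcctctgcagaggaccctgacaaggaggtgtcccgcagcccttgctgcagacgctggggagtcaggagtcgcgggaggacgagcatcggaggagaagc
These letters occurred in 1.08% of the 32851 promoters of the same length. Several promoters were searched, so this share is not the chance of a match among them. A match is a description of the sequence and not a measured site. The promoter was chosen for its match and for the fold changes here, so it is no evidence of a link between Plagl1 and Peg3. CpG dinucleotides, the bases that carry imprints as methylation, numbered 13 in the Peg3 promoter, 26 in that of Plagl1, 9 in that of Dlk1 and 11 in that of Ndn, beside a median of 7 over all promoters. Genes with several promoters in the table ranged more widely, with 13 and 1 for Meg3, 45 and 9 for Grb10, and 8, 17 and 17 for Mest. Methylation was not measured in this study.

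Mest, Grb10 and Ndn are a paternally, a maternally and a paternally expressed gene on 3 chromosomes. Mest, which encodes a membrane enzyme of the alpha/beta hydrolase fold linked to fetal growth, lies on the plus strand at chr6:30723547-30748465. It had 954, 1156 and 1430 CPM in KO libraries, and 1217, 1075 and 1326 CPM in WT libraries. The KO libraries held both the lowest and the highest value. The log2 fold change was -0.03 (SE 0.25, 95% interval -0.56 to 0.50, edgeR adjusted p = 0.963, exact permutation p = 0.9). Its antisense neighbour Copg2, a coat protein gene that shares 23.1% of the exon bases of Mest, was at 0.18 (SE 0.24), and -0.02 after the GC correction. Both genes can take reads over the 912 shared bases, so the level of Copg2 (33170 counts in all) is uncertain. The same holds for the antisense RNAs Igf2os, Kcnq1ot1, Snhg14, Nespas and Airn wherever their exons lie over those of another gene.

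Grb10 encodes an adaptor that binds the insulin and IGF1 receptors and damps their signal, and lies on the minus strand at chr11:11930508-12038683. It had 242, 248 and 246 CPM in KO libraries, and 184, 204 and 264 CPM in WT libraries. The KO values were almost equal, and the WT values spread to both sides of them. This gave a log2 fold change of 0.18 (SE 0.22, 95% interval -0.29 to 0.65, edgeR adjusted p = 0.718, exact permutation p = 0.4). It was 0.32 without WT-795 (edgeR adjusted p = 0.288) and 0.071 without WT-596.

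Ndn encodes necdin, a growth-restraining protein of the MAGE family, and lies on the plus strand at chr7:62346569-62350262. It had 97.2, 116 and 102 CPM in KO libraries, and 104, 96.4 and 103 CPM in WT libraries. It was the steadiest of the 9 genes, with an SD of 0.10 in log2 CPM over the 6 libraries, beside 0.62 for Plagl1. The log2 fold change was 0.06 (SE 0.20, 95% interval -0.38 to 0.49, edgeR adjusted p = 0.909, exact permutation p = 0.7), and -0.14 after the GC correction. In the same domain Ube3a, a ubiquitin ligase gene imprinted in neurons, was at 0.60 (SE 0.27), and Snhg14, the long RNA antisense to it, at 0.71 (SE 0.29) without overlap of the groups. After the GC correction Ube3a was at 0.18 and Snhg14 at 0.025. Without WT-795 Snhg14 was at 0.80 (edgeR adjusted p = 0.0972), and at -0.15 with the GC correction as well. Without WT-795 Ube3a rose by 0.94 (edgeR adjusted p = 0.0204), and was at 0.25 with the GC correction as well (adjusted p = 0.515).

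Over the 6 libraries the members did not share a pattern. H19 and Dlk1 were highest in WT-597, at 0.54 and 0.86 above their own mean in log2 CPM, as were Igf2 at 1.55 and the mean of the muscle markers at 1.18. Of the 18 muscle markers, 16 were below 0 in KO over WT with a median log2 fold change of -0.65, and 0 were called by edgeR (4 at an unadjusted p under 0.05). Peg3 and Plagl1 were lowest in that library, at -0.68 and -0.99. The part of muscle RNA in these differences was not tested beyond the covariate fits given above, and in bulk tissue fewer cells of a type and less RNA per cell cannot be told apart. The smaller the root mean square difference in centred log2 CPM over the 6 libraries, the more alike are 2 genes. Among 7137 coding and long non-coding genes with a mean of at least 10 CPM, those most like Peg3 were Prkg1, Appbp2 and Mib1 (0.021 to 0.032), and those most like Plagl1 were Cenpi, Lysmd3 and Tmem167 (0.073 to 0.11). Those most like Dlk1 were Tubb2b, Myo18a and Mrps15 (0.079 to 0.092), and those most like H19 were Atp5o, Rplp2 and Synpo2 (0.050 to 0.057). No member was among the 3 genes most like any of the 9, which says little, because any given gene seldom ranks so high among 7137. For Cdkn1c, Ndn ranked 303 and Grb10 388, while Plagl1 ranked 6749 for Cdkn1c and 7039 for H19. H19 ranked 250 of 7137 for Dlk1 and Dlk1 892 for H19, while Peg3 ranked 210 for Plagl1 and Plagl1 2046 for Peg3.

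**Figure D3:**
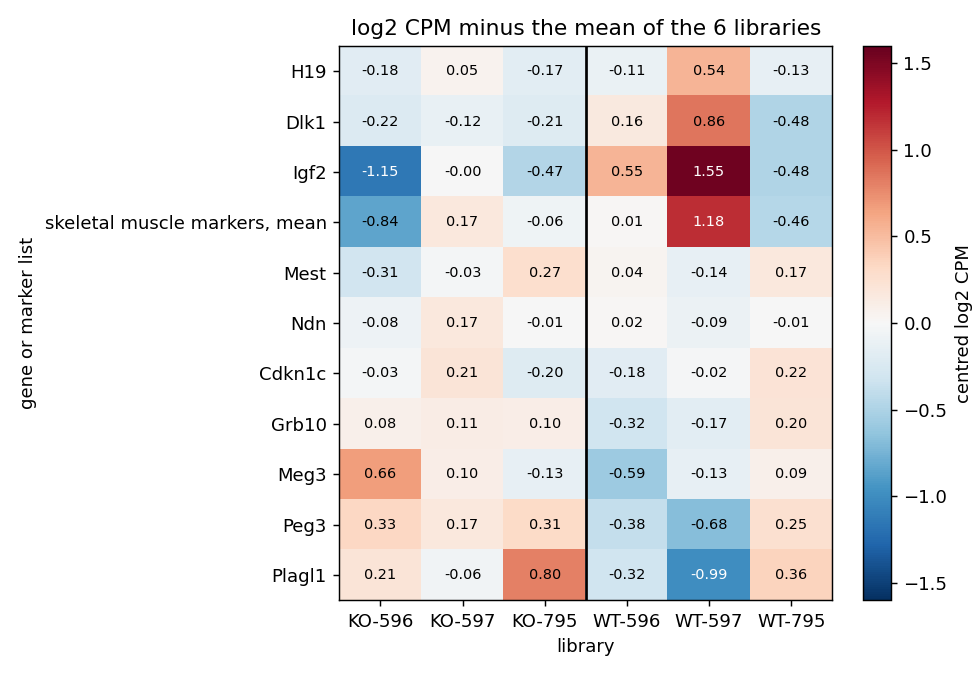
Log2 CPM of the 9 genes, Igf2 and the mean of the skeletal muscle markers in each library, minus the mean of the 6 libraries (colour and printed value), with KO left of WT. H19, Dlk1, Igf2 and the muscle markers are highest in WT-597, where Peg3 and Plagl1 are lowest.

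Transcript GC content moved with the fold change over all genes, and the members were spread along it. In the tenth of genes with the lowest GC content the median log2 fold change was 0.41, and in the tenth with the highest it was -0.43. Of the 9 genes, 5 lay within the middle 50% of the genes of their own GC decile. Plagl1, Peg3, Meg3 and Cdkn1c lay above it, at 0.45, 0.36, 0.47 and 0.42 over the median of their deciles. Library preparation or sequencing as a source of the GC trend was not tested.

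**Figure D4:**
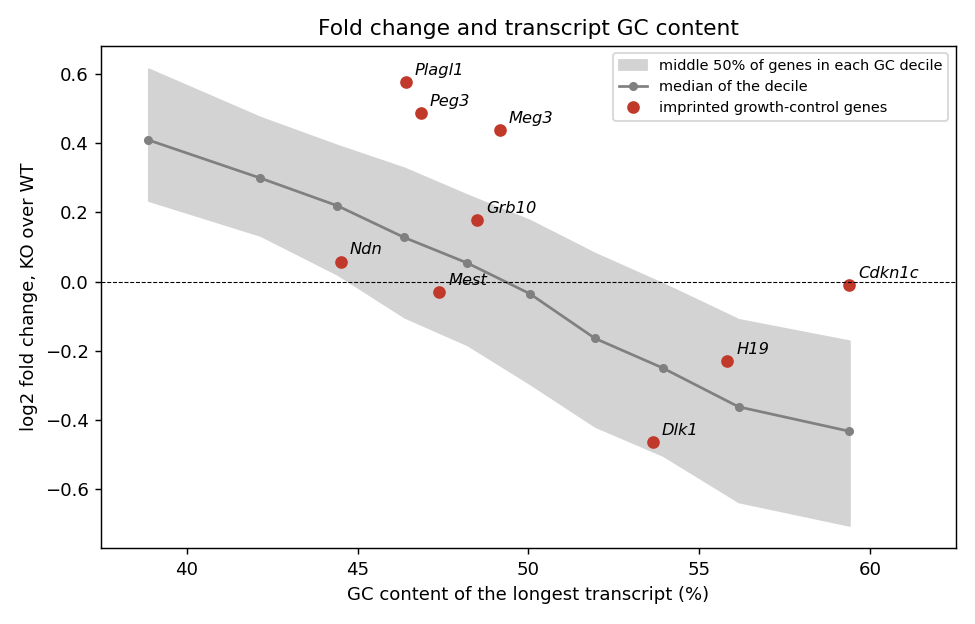
Log2 fold change of KO over WT against the GC content of the longest transcript, with the median and middle 50% of all tested genes in each GC decile (grey) and the 9 genes (red). The grey median goes from 0.41 at low to -0.43 at high GC content, and Plagl1, Peg3, Meg3 and Cdkn1c lie above the grey band.

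No other imprinted gene passed the test in the same fit. Whether each listed gene is imprinted in perichondrium was not tested. Of 32 other imprinted genes at the same loci, 22 were measured and 0 were called by edgeR, with a median log2 fold change of 0.17, 14 values above 0 and 8 below it. At an unadjusted p under 0.05 there were 6, of which 4 were higher and 2 lower, beside 10.5% of all genes. The groups did not overlap for 3 of the 22 (Zim1, Klf14 and Snhg14, all higher in KO), beside 11.9% of all genes. Of 30 imprinted genes elsewhere, 23 were measured and 0 called, with 13 above and 10 below 0, a median of 0.17, and 5 with an unadjusted p under 0.05. Those with the smallest p were Nespas, an antisense RNA of the Gnas locus, at -1.17 (SE 0.33), the chromatin gene Sfmbt2 at 1.22 (SE 0.41) and Airn, the antisense RNA that silences Igf2r, at 0.65 (SE 0.24). Sfmbt2 and Airn did not overlap between the groups, but Sfmbt2 had only 12 to 37 counts per library. Without WT-795 Nespas fell by 1.53 on the log2 scale (edgeR adjusted p = 0.00453, and 0.0196 with the GC correction as well). Nespas was also called with no filter (-1.19, edgeR adjusted p = 0.00352), in a fit that called 270 genes in all. Without WT-795 Airn rose by 0.86 (edgeR adjusted p = 0.0344, and 0.121 with the GC correction as well). The fit without WT-795 called 9.62% of all genes. The authors' deposited table of differential genes lists 0 of the 9 members, and gives log2 fold changes for 10 of the other imprinted genes listed here. In the authors' deposited table these are -1.25 for Igf2, -1.01 for Igf2os, -0.58 for H13, -0.44 for Gnas, 0.59 for Zim1, 0.59 for Ube3a, 0.64 for Inpp5f, 0.64 for Airn, 0.75 for Kcnq1ot1 and 1.21 for Sfmbt2. The deposited table has 1643 rows. The DESeq2 fit made here called 10 genes at an adjusted p under 0.05 and had 1640 at an unadjusted p under 0.05. A gene listed by the authors is therefore not the same as a gene called at the adjusted threshold used here.

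**Figure D5:**
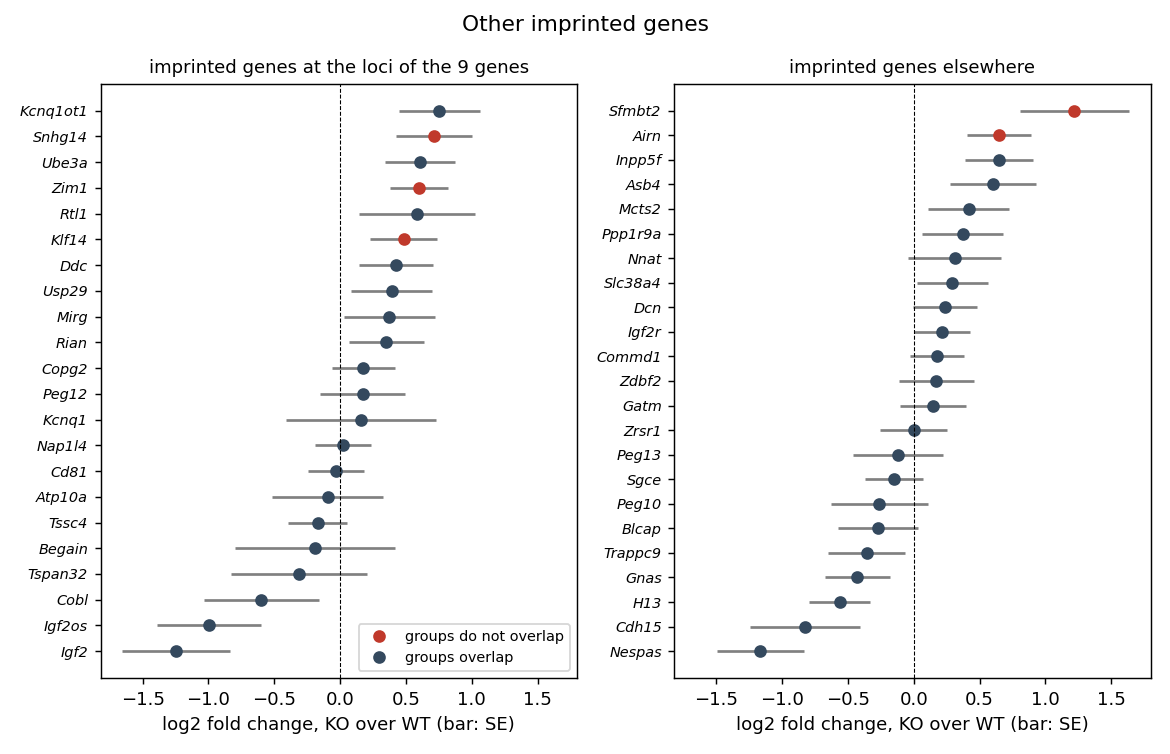
Log2 fold change of KO over WT with its standard error for 22 imprinted genes at the loci of the 9 genes (left) and 23 elsewhere (right). Igf2 and Nespas lie lowest, at -1.25 and -1.17, and genes whose groups do not overlap (red) all lie above 0.

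No gene known to work with the members passed in the same fit. Of 16 genes that set, keep or remove DNA methylation or protect imprints, 12 were measured, with 10 above and 2 below 0, a median of 0.23 and 0 called by edgeR (1 at an unadjusted p under 0.05). The demethylase gene Tet2, the chromatin gene Smchd1 and the zinc finger gene Zfp445, which protects imprints, were at 0.59 (SE 0.26), 0.56 (SE 0.26) and 0.64 (SE 0.31). Without WT-795 these 3 rose by 0.87, 0.86 and 1.03 (edgeR adjusted p = 0.0328, 0.0344 and 0.0337), and with the GC correction as well they were at 0.65, 0.44 and 0.70 (adjusted p = 0.150, 0.297 and 0.180). Tet2, Smchd1 and Zfp445 were named because they had the smallest p values of the list with all 6 libraries. The fit without WT-795 called 9.62% of all genes, 3.50% as higher, so these calls are not a result about the list. Of 14 cyclin-dependent kinase inhibitors and G1 cyclin genes, 13 were measured, with 7 above and 6 below 0, a median of 0.07 and 0 called (0 at an unadjusted p under 0.05). Cdkn1b, the close relative of Cdkn1c that encodes p27, was at 0.44 (SE 0.25), the kinase gene Cdk4 at -0.44 (SE 0.26) and the inhibitor gene Cdkn2b at -0.68 (SE 0.40). After the GC correction these 3 were at 0.18, -0.21 and -0.38, and Cdkn1b was at 0.0060 with the Xist covariate.

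Of 16 genes of insulin and IGF receptor signalling around Grb10, 15 were measured, with 9 above and 6 below 0, a median of 0.25 and 0 called by edgeR. At an unadjusted p under 0.05 there were 2, the kinase genes Pik3ca at 0.57 (SE 0.22) and Akt1 at -0.92 (SE 0.37), and Pik3r1, which encodes the regulatory partner of Pik3ca, was at 0.46 (SE 0.26). In this list 6 of 15 genes did not overlap between the groups, 3 higher and 3 lower in KO, beside 11.9% of all genes tested. Without WT-795 Pik3ca rose by 0.71 (edgeR adjusted p = 0.0457) and Akt1 fell by 1.27 (adjusted p = 0.0227), and with the GC correction as well they were at 0.24 and -0.69 (adjusted p = 0.552 and 0.225). Both had been named for their small p values with all 6 libraries, and the fit without WT-795 called 9.62% of all genes. Akt1 was also called with no filter on low counts (-0.95, edgeR adjusted p = 0.0246), in a fit that called 270 genes in all. Of 11 relatives of the members, 8 were measured, with 5 above and 3 below 0, a median of 0.24 and 0 called (1 at an unadjusted p under 0.05). Cdkn1a, which encodes the kinase inhibitor p21, was at -0.39 (SE 0.25), and -0.12 after the GC correction.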

How the data were processed

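Per the file headers, the authors deposited whole-number counts per gene from coordinate-sorted alignments, and the submitters' processing notes name GRCm38.p6 and DESeq2, without a version for DESeq2. Low-input SMART-Seq v4 and Nextera XT libraries were made, per the labels' protocols, a chemistry without strand marks or molecular identifiers, so intervals cover counting and library spread only. The authors' deposited log2 fold changes were read as base 2 because 1271 of 1643 lay within 0.001 of a DESeq2 fit made here. The 9 genes and all lists were chosen with earlier results of these data known. Named genes were the members, measured imprinted genes at their loci, and the 3 smallest p values of each other list. Pattern likeness used the 3 nearest genes.

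Counts were tested with edgeR 4.0.16 (R 4.3.3; TMM, filterByExpr, quasi-likelihood, no covariates, two-sided, Benjamini-Hochberg over 15712 genes), and log2 CPM used a prior count of 2. The procedure was tested on simulated data without a GC trend, with planted changes larger than that of any member. Whether it would call changes as small as those of the members was not tested. Alternatives were other scaling, filters, DESeq2 1.42.0, limma-voom 3.58.1, covariates for muscle markers and Xist, a GC correction (lowess span 0.3), a replicate block and each library left out. Sample weights and the GC correction without WT-795 were added after seeing the data. Symbols, positions, lengths and GC content came from GENCODE M21.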

Additional observations from a re-analysis of the deposited data

How the results depend on the processing

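Of the 9 members, 0 were called in every alternative except without WT-795. Leaving out 1 library gave 0 to 3 members and 1 to 1512 genes in all, with 9 without KO-795. Over all genes, 1 was called in the fit reported and 270 without a filter, 10 by DESeq2, 0 with the Xist covariate, 4 with the GC correction and replicate block, and 89 with the GC correction without WT-795. Deviations from the group mean of same-numbered libraries correlated at -0.18, 0.24 and -0.20, beside -0.29 to 0.38 for other pairs. With 3 libraries per group these values cannot tell whether the numbers in the titles mark pairs. The replicate block called 0 members and 1 gene in all, and with it Peg3 was at 0.54 and Plagl1 at 0.63. For Plagl1 the edgeR p with the block was 0.0207 unadjusted and 0.528 adjusted, beside 0.097 unadjusted in the fit reported. Signs changed in the following cases, and the cause was not tested. With the GC correction H19 was at 0.088, Cdkn1c at 0.34, Ndn at -0.14, Rian at -0.11 and Copg2 at -0.017, and with the replicate block as well at 0.11, 0.39, -0.15, -0.10 and -0.023. With the GC correction and without WT-795 H19 was at 0.10, Cdkn1c at 0.67, Ndn at -0.22 and Snhg14, 0.71 with all 6 libraries, at -0.15. Mest was at 0.25 and Pik3r1 at -0.015 with the Xist covariate, and Cdkn1c at 0.14 with sample weights. With 1 library left out, H19 ranged from -0.37 to 0.0098, Cdkn1c from -0.12 to 0.080, Mest from -0.20 to 0.10 and Ndn from -0.020 to 0.11.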

Other observations

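Short annotated genes that lie wholly inside an exon of a well-counted gene showed a split by strand. Of 54 such rows on the same strand as their host (at most 300 bases long, host with at least 10000 counts, 1 overlapping gene), all 54 had 0 counts over the 6 libraries. Of 13 rows on the opposite strand, 0 were at 0 and 6 had over 100 counts. H19 showed both sides: Mir675 on its own strand had 0 counts, while Gm27483 and Gm27786 on the opposite strand had 4587 and 1005. The kit does not mark strand, so reads at such sites cannot be assigned to H19 or its antisense rows, and the effect on the level of H19 was not tested.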
